A study of Mus musculus with 24 samples.

Results

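The Notch pathway was followed through 10 of its genes, chosen by symbol, with earlier results of these data known. They were the receptors Notch1, Notch2 and Notch3, the ligands Jag1, Jag2 and Dll1, and the target genes Hes1, Hey1, Heyl and Nrarp. All 10 were listed in each of 3 expression tables, which held 31053, 25876 and 20729 genes, with 16678 symbols listed once in all 3. The study grew organoids from the livers of adult BALB/c mice and asked how hepatocyte-derived cultures compare with primary hepatocytes, and how cultures of either origin behave over passages. The hepatocyte table held 3 libraries labelled Pri-Hep and 9 of hepatocyte organoids, 3 each at passages P1, P5 and P10. The cholangiocyte table held 9 libraries of cholangiocyte organoids, 3 each at P0, P5 and P10. The third table held single Smart-Seq libraries of 3 hepatocyte organoid shapes: Grape-like, Round-like and Intermediate.

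Hep-Orgs started from cells depleted of EpCAM-positive cells and were kept in a hepatocyte medium (Hep-Med) with dexamethasone (Dex) and DAPT, an inhibitor of gamma-secretase. Cho-Orgs started from EpCAM-positive cells and their medium held no DAPT. The 3 Smart-Seq subtypes were told apart by shape at P0, and in the study's account they were profiled before DAPT and Dex joined the medium. No group differed from another in DAPT alone: Hep-Orgs and Cho-Orgs also differed in cell of origin, in the rest of the medium and in the table their values came from. The effect of the inhibitor therefore cannot be told apart from those differences. The sources do not say whether Pri-Hep cells were cultured before lysis. A numbered library may be a mouse or an independent culture, so the p-values measure the spread between these libraries, which may be technical.

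Notch receptors are single-pass membrane proteins that are cut when a ligand of the Jagged or Delta-like family on a neighbouring cell pulls on them. An ADAM protease makes the first of these cuts and gamma-secretase the next, which frees the intracellular domain to enter the nucleus, bind RBPJ and Mastermind-like co-activators, and switch on genes of the Hes and Hey families and Nrarp. In the liver, Jag1 acting on Notch2 is needed for bile ducts to form, and Notch activity in hepatocytes is known to promote biliary traits.

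The 10 genes lie apart in the mouse genome (mm10), with Notch1 (chr2:26457903-26516663) and Nrarp (chr2:25180758-25183339) the nearest to each other. Of the receptors, Notch2 is at chr3:98013527-98150361 and Notch3 at chr17:32120820-32166880. The ligands are Jag1 (chr2:137081456-137116644), Jag2 (chr12:112907819-112929776) and Dll1 (chr17:15367354-15376872). Hes1 is at chr16:30064384-30067796, Hey1 at chr3:8663359-8667256 and Heyl at chr4:123233556-123249875. In the annotation Notch3, Dll1 and Nrarp overlap the genes Gm17276, A930024N18Rik and Gm38287, which were at most at 0.0512, 0.508 and 0 FPKM. How strand was treated in counting is not given in the sources used here, so reads of such overlaps may not be separable.

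The 3 stretches of DNA below are shown because their genes stood apart in these tables. Nrarp was near 0 in the hepatocyte table and well expressed in Cho-Orgs. Notch3 had the largest rise of the receptors in Cho-Orgs, and Notch2 moved opposite to it. Each stretch lies just upstream of the gene's RefSeq start (GRCm38.p6) and is written 5′ to 3′ on the strand of the gene. Capitals mark an E-box (CACGTG) or an N-box (CACNAG) on either strand, short motifs of the kind that Hes and Hey proteins are known to bind. Nrarp lies at chr2:25180508-25180757, plus strand. Notch3 lies at chr17:32166891-32167140, minus strand. Notch2 lies at chr3:98013288-98013526, plus strand, and ends before its first annotated exon.
Nrarp: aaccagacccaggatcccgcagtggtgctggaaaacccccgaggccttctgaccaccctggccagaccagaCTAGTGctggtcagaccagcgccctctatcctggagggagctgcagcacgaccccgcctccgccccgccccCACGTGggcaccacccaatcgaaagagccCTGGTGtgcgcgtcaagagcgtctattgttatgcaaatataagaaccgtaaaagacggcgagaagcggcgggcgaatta
Notch3: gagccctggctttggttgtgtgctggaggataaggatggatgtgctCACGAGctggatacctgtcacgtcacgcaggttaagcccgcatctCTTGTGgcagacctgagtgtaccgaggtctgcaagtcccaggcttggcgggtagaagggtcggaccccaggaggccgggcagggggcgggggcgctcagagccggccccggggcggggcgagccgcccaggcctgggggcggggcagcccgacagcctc
Notch2: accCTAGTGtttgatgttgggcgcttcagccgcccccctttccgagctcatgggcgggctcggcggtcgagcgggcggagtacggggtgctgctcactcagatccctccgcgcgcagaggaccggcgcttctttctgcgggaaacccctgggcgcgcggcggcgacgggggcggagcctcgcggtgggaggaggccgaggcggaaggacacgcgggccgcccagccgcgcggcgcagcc

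A window of 250 bases upstream of the start was on hand for 7 of the 10 genes, with 2 starts for Dll1 and so 8 windows. Of these, 4 were free of annotated exons over more than 200 bases. The Jag1 window held 126 bases before an annotated exon, and those of Jag2 and Dll1 held 0, so they are not wholly upstream. The Nrarp window held the single E-box, 108 bases before the start, and E-boxes stood in 6.02% of 32851 mouse promoter windows of that length. An N-box stood in 4 of the 8 windows, those of Nrarp, Notch1, Notch2 and Notch3, against 36.7% of all windows. The letters TGGGAA, the core that RBPJ binds, were in none of the 8 windows and in 21.6% of all windows. The variant TGAGAA was in the Jag1 window alone, against 17.2% of all, and TATAAA was in none, against 12.4%. These matches describe letters and not binding.

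The tables give fragment counts (FPKM) scaled to gene length and to the size of the library, so levels can be compared between genes of a table, while a level set beside one from another table is only a rough guide because each table was normalised by itself and with its own gene lengths. In Hep-Orgs Hes1 was the highest of the 10, at 27.6 ± 1.16 FPKM (SD, n = 9), and Notch1 (14.2 ± 0.376), Notch2 (14.1 ± 0.491) and Jag1 (14.0 ± 0.551) followed. The lowest were Nrarp, Hey1 and Heyl, all under 0.2 FPKM in all 12 libraries of the table. In Cho-Orgs Hes1 again led, at 30.2 to 51.5 FPKM, Jag2 came next, and Nrarp stood between 4.52 and 7.57 FPKM. Heyl was under 0.07 FPKM in every library of the series.

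**Figure D1:**
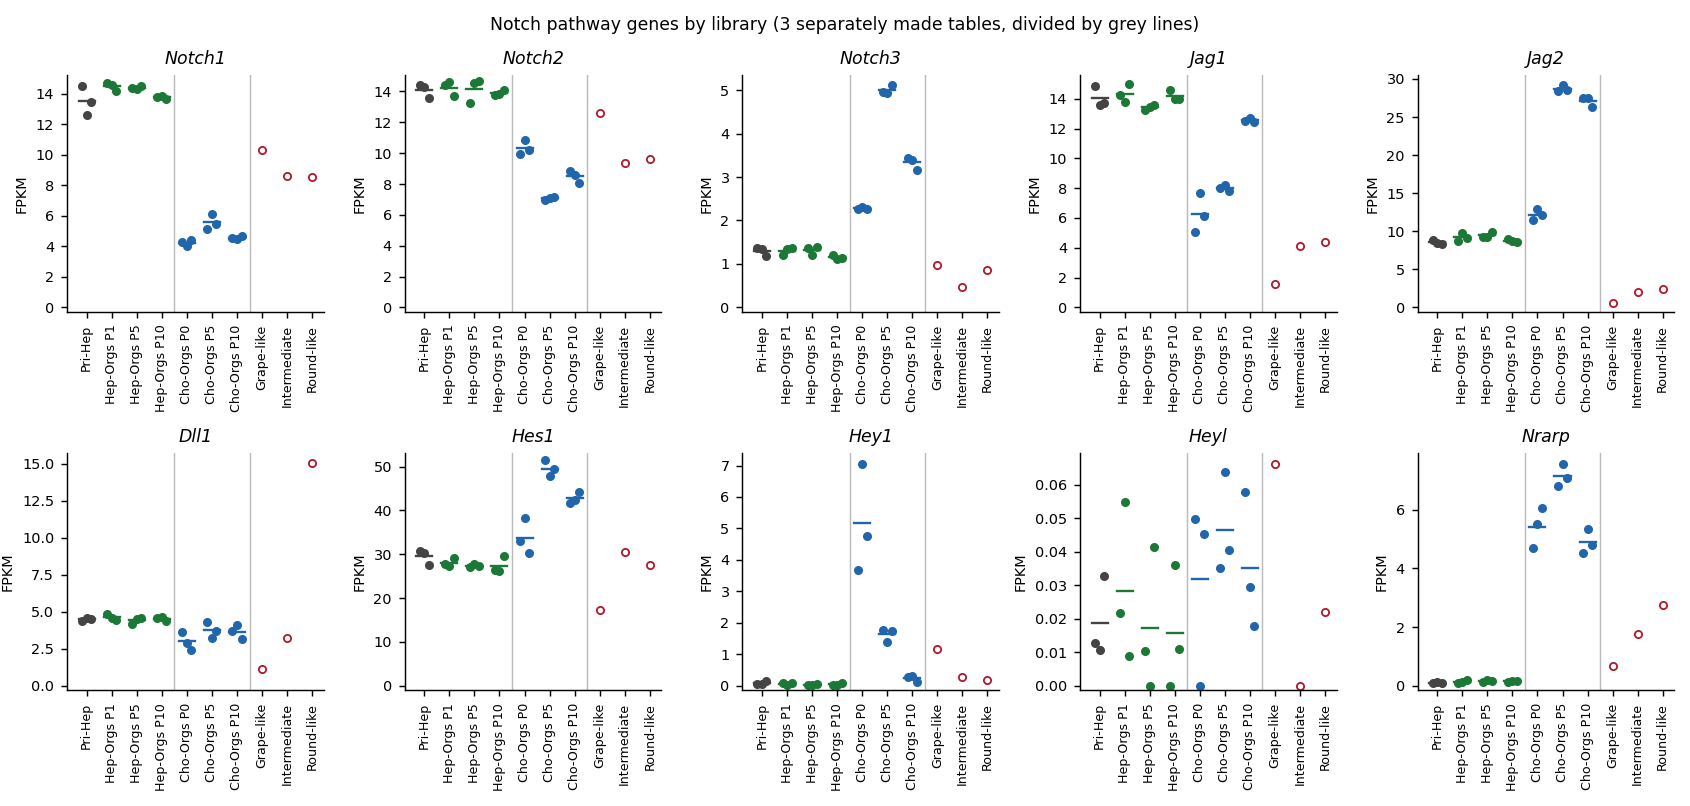
Level of each of the 10 Notch pathway genes in FPKM (y axis, from 0, own scale per gene) in every library, by group (x axis). Points are libraries and short lines are means of 3; open points are single Smart-Seq libraries, and grey lines divide the 3 separately made tables. The 12 libraries of the hepatocyte table lie close together for Notch1, Notch2, Notch3, Jag1, Jag2, Dll1 and Hes1, while the Cho-Orgs passages separate for most genes, with Hey1 falling from 5.17 to 0.235 FPKM on average.

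Before the comparisons, the labels were checked against marker genes. Libraries labelled Pri-Hep carried Alb, the main secreted protein of hepatocytes, at 112 ± 7.99 FPKM (SD, n = 3), and the Hep-Orgs means were 109 to 115 FPKM. The biliary keratin Krt19 was at 237 ± 6.66 FPKM and Epcam, the antigen of the negative selection, at 269 ± 5.40 FPKM in the libraries labelled Pri-Hep, against Hep-Orgs means of 239 to 240 and 266 to 278 FPKM. Of 10 hepatocyte genes, 6 were at 1 FPKM or more in each library labelled Pri-Hep, led by Ttr, a secreted carrier protein, at a mean of 419 FPKM, and Apob, Cyp2e1 and Tat were below 1 FPKM in each. The list summed to 635 to 668 FPKM there and to 648 to 696 FPKM in Hep-Orgs. The libraries labelled Pri-Hep thus carried the biliary markers at the level of the organoids, and each comparison with them is a comparison with those libraries as labelled. Endothelial markers summed to at most 0.406 FPKM over 10 genes in the hepatocyte table. Whole fragments could be recovered for this table, 14068906 to 27160365 per library, whereas depth in the other tables could only be estimated, at about 37410000 to 40340000 fragments. At those depths only 15.3 to 25.3% of low values came out near whole fragments, with gene lengths taken from the hepatocyte table. Estimated fragments of these tables are thus approximate.

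The receptors were nearly level across the hepatocyte table. Notch1, the receptor with the widest role in development, was at 14.5, 12.6 and 13.5 FPKM in the libraries labelled Pri-Hep. It ranged from 13.7 through a median of 14.3 to 14.7 FPKM over the 9 Hep-Orgs libraries. The groups overlapped, with 2 Pri-Hep libraries below all Hep-Orgs and the other among the highest. The difference was 0.07 on the log2(FPKM + 1) scale (95% interval -0.00 to 0.14, limma adjusted p = 0.578). Notch2, the receptor required for bile duct formation, ranged from 13.3 to 14.7 FPKM over Hep-Orgs against 13.6 to 14.4 FPKM in Pri-Hep, a difference of 0.00 (-0.07 to 0.07). Notch3, best known from mural cells of vessels, was much lower, with 1.11 to 1.396 FPKM in Hep-Orgs and 1.18 to 1.38 FPKM in Pri-Hep.

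The ligands followed the same course. Jag1, the ligand mutated in Alagille syndrome, was at 14.9, 13.6 and 13.7 FPKM in Pri-Hep and between 13.3 and 14.96 FPKM in Hep-Orgs. Jag2, its close relative, was at 8.88, 8.51 and 8.32 FPKM in Pri-Hep and ran from 8.63 through a median of 9.17 to 9.94 FPKM in Hep-Orgs. The highest Pri-Hep value of Jag2 lay among the Hep-Orgs values, and the difference of 0.09 (0.01 to 0.16) had a limma adjusted p of 0.517. Dll1, a Delta-like ligand, was lower than both, at 4.35 to 4.57 FPKM in Pri-Hep and 4.20 to 4.82 FPKM in Hep-Orgs.

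Among the targets, Hes1 carried nearly all of the signal. This repressor of transcription was at 30.8, 30.3 and 27.5 FPKM in Pri-Hep and at 26.2 to 29.7 FPKM in Hep-Orgs, median 27.3 FPKM. Of the Pri-Hep libraries, 2 lay above all 9 Hep-Orgs libraries and the other lay among them. The difference of -0.09 (-0.18 to -0.01) did not pass, with a limma adjusted p of 0.543. Hey1, a related repressor prominent in vessels, rested on 1 to 8 fragments per library (0.0188 to 0.136 FPKM), and Nrarp, a target that feeds back on Notch receptors, on 4 to 11 fragments (0.0853 to 0.195 FPKM). Heyl had 0 to 5 fragments, and the 2 Hep-Orgs libraries with none allow a level of up to 0.0302 and 0.0418 FPKM, the value of 3 fragments. Limits of this kind cover counting error only. These 3 targets were below the minimum of 1 FPKM in 3 libraries and were not tested.

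Over these 7 tested genes, 0 passed an adjusted p of 0.05 between all Hep-Orgs and Pri-Hep, where 0% of 10986 genes did. Hes1 and Jag2 had unadjusted p-values below 0.05, as did 8.79% of all genes. A fit of limma-voom on recovered fragments also called 0 of the 7. The limits of the 7 intervals of the difference ran from -0.18 to 0.16 on the log2 scale, so larger shifts were outside them. By passage, 0 of 7 passed at P1 and at P5 against Pri-Hep (0.0091% of all genes each), and 0 of 7 at P10 against Pri-Hep or against P1 (0% each). At unadjusted p below 0.05 there were 2 genes at P1 (Notch1 and Jag2, 8.29% of all genes), 1 at P5 (Jag2, 10.8%), and 0 at P10 against Pri-Hep (6.64%) or against P1 (8.98%). The Jag2 libraries at P5, at 9.28, 9.30 and 9.94 FPKM, all lay above the Pri-Hep libraries, and 15.1% of all genes did not overlap in that comparison. At P10 Notch1 lay below all P1 libraries, as a non-overlap that 16.3% of all genes showed. A comparison of P10 with P5 was added after the values had been seen. In it 0 of 7 passed (0.0273% of all genes), with Jag2 alone at an unadjusted p below 0.05 (11.5%). In the order of levels within Hep-Orgs, Hes1 stood apart at the top, Notch1, Notch2 and Jag1 overlapped, and Jag2, Dll1 and Notch3 followed in that order without overlap. Nrarp came next, but its lowest value, 0.0853 FPKM, nearly met the highest of Hey1, 0.0850 FPKM. These rested on 4 to 11 and 1 to 7 fragments, so Nrarp and Hey1 were not clearly apart. Hey1 and Heyl overlapped at the bottom.

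**Figure D2:**
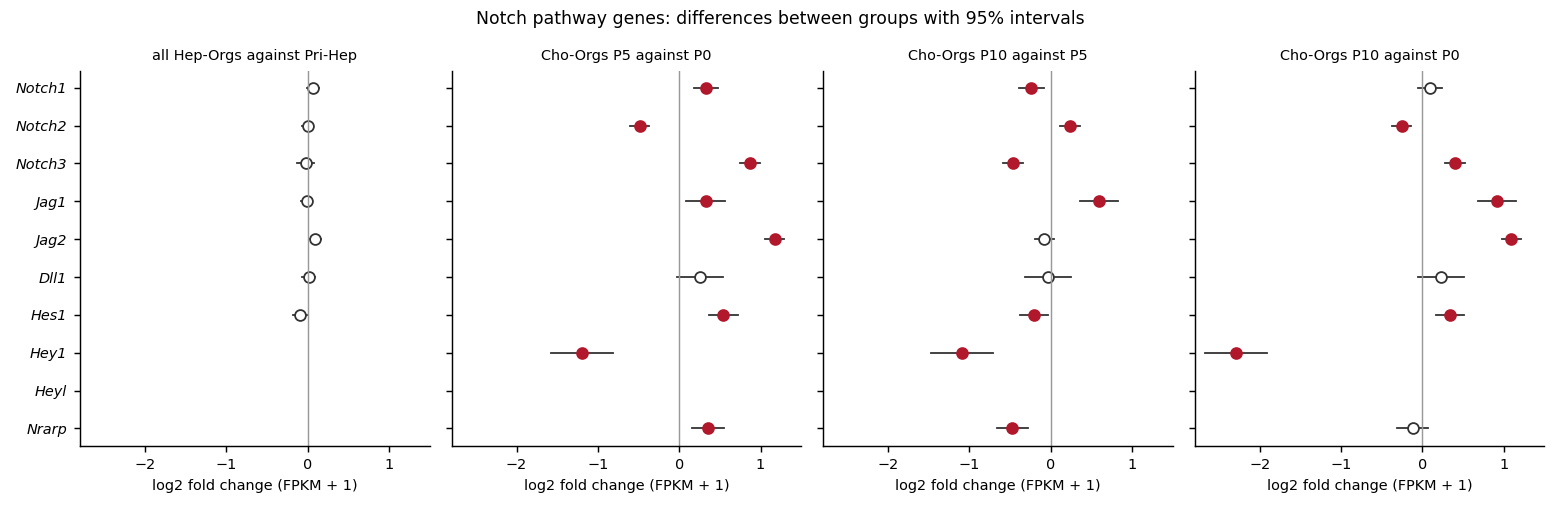
Log2 fold change of FPKM + 1 (x axis) for each Notch pathway gene (y axis) in 4 comparisons, with 95% intervals from limma. Filled red points passed an adjusted p of 0.05, open points did not, and genes below the minimum level have no point. All 7 points of Hep-Orgs against Pri-Hep lie within 0.1 of 0, whereas in Cho-Orgs Jag2 rose by 1.17 from P0 to P5 and Hey1 fell by 2.29 from P0 to P10.

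In Cho-Orgs 9 of the 10 genes were tested and most moved, in a culture where most of the transcriptome moved as well. Between P0 and P5, 6 of 9 were higher and 2 lower at an adjusted p of 0.05, 8 in all, against 56.6% of 11593 genes (34% higher, 22.6% lower). Of all genes called there, 3938 of 6559 were higher, and with median-ratio size factors 3087 of 6536. The median of all genes was 0.06 on the log2 scale, 0.11 after rescaling to TPM, in which all libraries sum to the same total, and -0.01 with median-ratio factors. Between P5 and P10, 2 were higher and 5 lower, 7 of 9, against 61.5% of all genes (31% and 30.5%). Between P0 and P10, 4 were higher and 2 lower, 6 of 9, against 72.3% (41% and 31.3%). For P5 against P0 the share was above the background and for the others near it, which is no result about these genes as a set, and the 3 comparisons share their groups pairwise. The directions and sizes of single genes are described next.

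The balance of the receptors shifted over the passages of Cho-Orgs, while Notch2 stayed the highest and Notch3 the lowest in group mean. Notch2 was the highest of the 3 at P0, at 9.94, 10.9 and 10.2 FPKM, and was 6.96, 7.08 and 7.18 FPKM at P5 and 8.83, 8.56 and 8.09 FPKM at P10. The 3 passages did not overlap. Notch2 fell by 0.49 from P0 to P5 (standard error 0.05, limma adjusted p = 4.8e-05) and rose by 0.23 from P5 to P10 (adjusted p = 0.00385), so that P10 remained 0.25 below P0 (-0.25, adjusted p = 0.0017).

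Notch3 went the other way. It was at 2.27, 2.31 and 2.26 FPKM at P0, at 4.95, 4.93 and 5.12 FPKM at P5, and at 3.45, 3.402 and 3.17 FPKM at P10. Each passage was separate from the others, by far more than the spread of its 3 libraries. The rise to P5 was 2.19-fold in mean FPKM (log2 difference 0.87, limma adjusted p = 1.13e-06), and the later fall was -0.47 (adjusted p = 5.6e-05). Notch1 moved less, with 4.27, 4.004 and 4.40 FPKM at P0, 5.15, 6.15 and 5.44 FPKM at P5, and 4.57, 4.47 and 4.66 FPKM at P10. It was higher at P5 than at P0 (0.33, limma adjusted p = 0.0021) and lower at P10 than at P5 (-0.24, adjusted p = 0.0111), and P10 did not pass against P0 (0.09, adjusted p = 0.235). The fall of Notch1 from P5 to P10 was lost when the libraries numbered 2 (adjusted p = 0.0871) or 3 (0.0684) of all passages were left out.

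The summed FPKM of the 3 receptors stayed within 15.9 to 18.2 over the 9 Cho-Orgs libraries, while its make-up changed. Notch2 made up 61.3 ± 1.62% of the sum at P0, 40.1 ± 0.980% at P5 and 51.8 ± 0.864% at P10 (SD, n = 3 each). Notch3 made up 13.6 ± 0.205%, 28.4 ± 1.03% and 20.4 ± 0.408%. Because the course of Notch2 turned at P5, its slope over passage order, -4.78 percentage points a step, did not pass (two-sided exact permutation test over 1680 arrangements, p = 0.229, adjusted p = 0.343 over 6 tests of shares). In the hepatocyte table Notch1 and Notch2 each made up close to equal parts, 48.1 ± 0.720% and 47.7 ± 0.913% in Hep-Orgs (SD, n = 9), and Notch3 made up 4.25 ± 0.338%. The share of Notch2 there differed from Pri-Hep by -1.08 percentage points (exact permutation test over 220 arrangements, p = 0.209, adjusted p = 0.343).

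**Figure D3:**
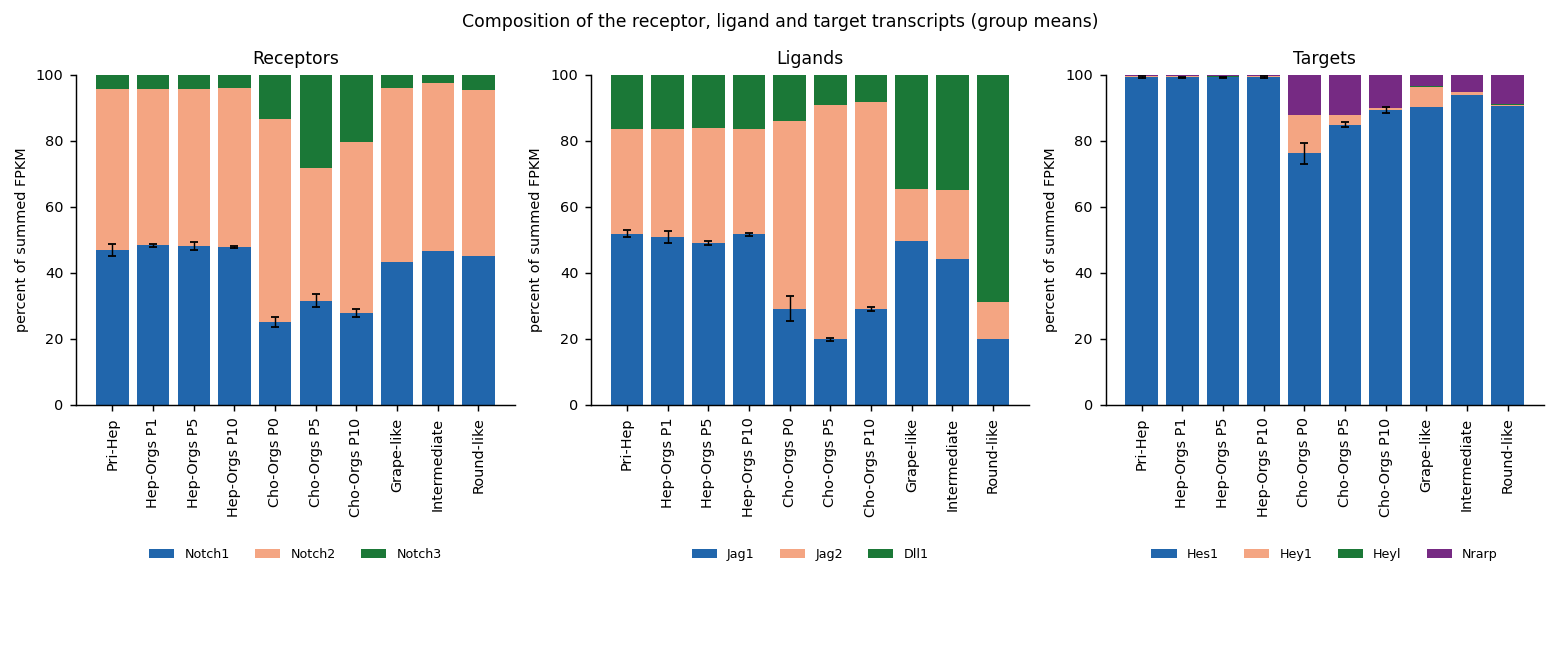
Percent of the summed FPKM of the 3 receptors, the 3 ligands and the 4 targets (y axis, 0 to 100) taken by each gene, as group means (x axis). Bars of the Smart-Seq subtypes are single libraries, and error bars on the lowest block are the SD of 3 libraries. Notch2 takes 61.3% of the receptors at Cho-Orgs P0 and 40.1% at P5, and Hes1 takes 99.2% of the targets in Hep-Orgs and 76.2% at Cho-Orgs P0.

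Both Jagged ligands were higher at P10 than at P0 in Cho-Orgs, and Dll1 passed in none of the comparisons. Jag2 was at 11.5, 12.9 and 12.1 FPKM at P0, at 28.5, 29.2 and 28.6 FPKM at P5, and at 27.5, 27.4 and 26.4 FPKM at P10. All libraries of the later passages were above all of P0. The rise to P5 was 2.36-fold in mean FPKM (log2 difference 1.17, standard error 0.05, limma adjusted p = 1.18e-07), and P10 did not pass against P5 (-0.08, adjusted p = 0.192), although the 2 groups did not overlap, as 74.2% of all genes did not.

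Jag1 rose at each step. It was at 5.06, 7.65 and 6.11 FPKM at P0, at 7.998, 8.20 and 7.82 FPKM at P5, and at 12.52, 12.7 and 12.47 FPKM at P10. The P0 libraries were spread widely and their highest came close to the P5 libraries, which stood close together. The difference was 0.32 from P0 to P5 (limma adjusted p = 0.0254) and 0.59 from P5 to P10 (adjusted p = 0.000914), a 2.00-fold rise in mean FPKM over both. The first step was lost without the libraries numbered 1 (0.20, adjusted p = 0.137) or 3 (0.33, adjusted p = 0.153), with median-ratio factors (0.25, adjusted p = 0.0826), with the 2 groups fitted alone (0.32, adjusted p = 0.0632) and with no filter on low values (0.32, adjusted p = 0.0615). The second step passed under all 11 alternatives.

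Dll1 did not pass between any passages of Cho-Orgs. Its values were 3.62, 2.92 and 2.43 FPKM at P0, 4.32, 3.25 and 3.69 FPKM at P5, and 3.73, 4.10 and 3.13 FPKM at P10, so every pair of passages overlapped. The interval of its difference between P0 and P5 was wide, -0.02 to 0.54 around 0.26 (limma adjusted p = 0.107). The 3 ligands together summed to 20.2 to 23.5 FPKM at P0, 40.1 to 40.8 FPKM at P5 and 41.9 to 44.3 FPKM at P10. Jag1 made up 29.1 ± 3.78%, 19.8 ± 0.375% and 29.0 ± 0.609% of that sum at P0, P5 and P10 (SD, n = 3 each), with no slope over passage order (-0.02 points a step, exact permutation p = 0.994, adjusted p = 0.994). In Hep-Orgs Jag1 made up 50.5 ± 1.46% of the ligands and differed from Pri-Hep by -1.35 points (exact permutation p = 0.191, adjusted p = 0.343).

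Among the targets in Cho-Orgs, Hey1 had the largest change of the 10 genes. It was at 3.68, 7.05 and 4.78 FPKM at P0, at 1.77, 1.39 and 1.72 FPKM at P5, and at 0.272, 0.321 and 0.111 FPKM at P10. The passages did not overlap, and the P10 values rested on about 13.6 to 39.2 estimated fragments a library. Mean FPKM was 3.17 times higher at P0 than at P5 and 6.94 times higher at P5 than at P10, and 22.0 times higher at P0 than at P10. On the log2(FPKM + 1) scale the total fall was -2.29 (standard error 0.17, limma adjusted p = 1.36e-06), and with a pseudocount of 0.1 it was -3.99.

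Hes1 and Nrarp did not follow Hey1. Hes1 was at 33.0, 38.3 and 30.2 FPKM at P0, at 51.5, 47.8 and 49.4 FPKM at P5, and at 41.8, 42.3 and 44.2 FPKM at P10. P5 was the highest, P10 the middle and P0 the lowest, with no overlap. The rise to P5 was 0.54 (limma adjusted p = 0.00026). The fall to P10 was -0.21 (adjusted p = 0.0399), and it was lost without the libraries numbered 1 (0.224) or 3 (0.0786), with no filter (0.0786), with median-ratio factors (0.0514) and with the replicate block (0.0595). P10 was above P0 by 0.34 (adjusted p = 0.00308), and without the libraries numbered 3 this was 0.24 (adjusted p = 0.0622).

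Nrarp was at 4.68, 5.53 and 6.05 FPKM at P0, at 6.82, 7.57 and 7.10 FPKM at P5, and at 4.52, 5.35 and 4.796 FPKM at P10. The P5 libraries were above all others, and P0 and P10 overlapped. It was higher at P5 than at P0 (0.35, limma adjusted p = 0.00681) and lower at P10 than at P5 (-0.47, adjusted p = 0.0011). Nrarp was the upstream sequence with an E-box shown above. Heyl stayed at 0 to 0.0637 FPKM and was not tested.

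The share of Hes1 in the summed FPKM of the 4 targets was 76.2 ± 3.18% at P0, 84.9 ± 0.773% at P5 and 89.2 ± 0.979% at P10 (SD, n = 3 each). Its slope was 6.54 percentage points a step, with p = 0.00119, the smallest the exact permutation test can give, and an adjusted p of 0.00714. Hey1 gave up the most, from 11.5 ± 2.50% to 0.493 ± 0.235%, while Nrarp took 12.3 ± 2.11% at P0 and 10.2 ± 0.820% at P10. With 2 libraries a passage the adjusted p was 0.133 for each replicate left out, and the slope was 5.69 to 7.33 points. In Hep-Orgs Hes1 took 99.2 ± 0.144% of the 4 targets (SD, n = 9), -0.06 points from Pri-Hep (exact permutation p = 0.582, adjusted p = 0.698).

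P10 and P5 were set side by side in both bulk tables, a comparison chosen after the values had been seen. Of 7 Notch genes tested in both bulk tables, 4 did not overlap between P5 and P10 in either culture and moved the same way: Jag1 was higher and Notch1, Notch3 and Jag2 were lower at P10. In Hep-Orgs the differences were 0.07, -0.06, -0.11 and -0.10 on the log2 scale with limma adjusted p of 0.373 to 0.619. In Cho-Orgs they were 0.59, -0.24, -0.47 and -0.08. Of 9846 genes tested in both tables, 5.95% did not overlap and shared a direction and 7.51% had opposite directions. The 4 genes were chosen for this pattern, so it is a description only.

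Markers of other cells moved with the passages of Cho-Orgs. The summed FPKM of 10 hepatocyte markers was 6488 to 7250 at P0, 226 to 277 at P5 and 90.7 to 96.8 at P10, and Alb alone went from 4994 ± 406 to 0.584 ± 0.0579 FPKM (SD, n = 3). The 10 stellate and mural markers went from 64.6 to 79.4 FPKM at P0 to 0.174 to 0.239 at P10, with Reln making most of it at P0 and P5, and Acta2, Dcn and Hgf were at 0 in all P5 and P10 libraries. The 10 endothelial markers, of interest because Hey1 is prominent in vessels, summed to 1.13 to 2.36 FPKM at P0, 14.3 to 22.9 at P5 and 1.07 to 1.64 at P10. Of these, Pecam1, Cdh5 and Kdr were below 1 FPKM in every Cho-Orgs library, and Tek and Vwf made the P5 peak. The 10 proliferation markers summed to 350 to 507 FPKM at P0, 194 to 199 at P5 and 81.0 to 88.3 at P10. The 10 macrophage markers, led by Cd68, summed to 43.1 to 48.8, 72.1 to 77.3 and 10.1 to 10.5 FPKM, with Clec4f, Timd4 and Vsig4 at 0 throughout, and the blood and lymphoid sum was at most 3.03. The biliary markers Krt7 and Krt19 were present in all 9 libraries. Fewer cells of a type and less RNA per cell cannot be told apart in such bulk libraries, and the part of these markers in the Notch values was not tested.

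Gamma-secretase, the protease complex that DAPT blocks, was transcribed in every library of the series. None of its genes passed between all Hep-Orgs and Pri-Hep, and Ncstn alone had an unadjusted p below 0.05. Ncstn, which holds the complex together and receives the substrate, was at 48.3 ± 0.733 FPKM in Pri-Hep and 50.0 FPKM over Hep-Orgs, a difference of 0.05 (0.01 to 0.09, limma adjusted p = 0.456). Psenen, a small subunit of the complex, was at 37.9 and 38.1 FPKM, the scaffold Aph1a at 21.9 and 22.9 FPKM, and Psen2, a catalytic subunit, at 4.43 and 4.39 FPKM. The close copies Aph1b and Aph1c, between which reads may be split, were at 8.93 and 9.29 and at 5.30 and 5.56 FPKM.

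In Cho-Orgs, gamma-secretase genes moved in both directions. From P0 to P5 Ncstn fell from 60.6 ± 4.68 to 51.7 ± 1.13 FPKM (log2 difference -0.22, limma adjusted p = 0.00777). Psen2 was 7.92 ± 0.962, 6.32 ± 0.483 and 9.70 ± 0.564 FPKM at P0, P5 and P10, lower at P5 (-0.28, adjusted p = 0.0171) and higher again at P10 (0.55, adjusted p = 0.000361). Aph1b was lower at P10 than at P5 (-0.30, adjusted p = 0.0198). Aph1a (19.4, 19.3 and 21.1 FPKM), Psenen (45.6, 44.0 and 44.2 FPKM) and Aph1c (0.879, 1.10 and 1.499 FPKM) did not pass in either step.

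**Figure D4:**
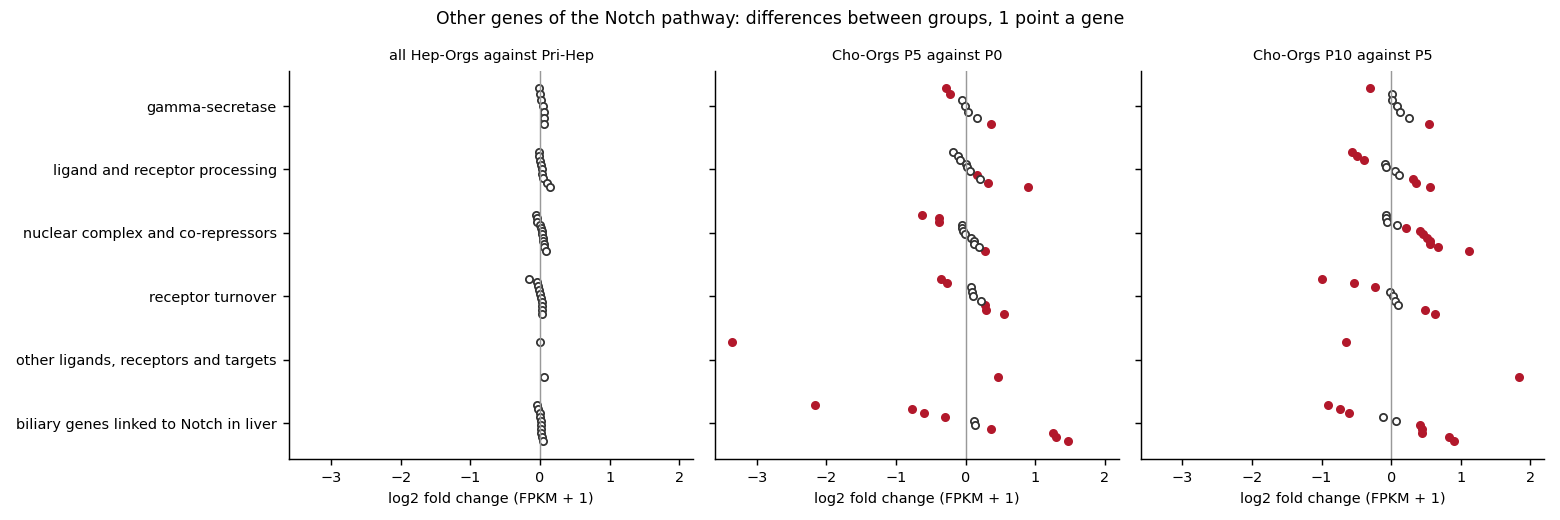
Log2 fold change of FPKM + 1 (x axis) for the genes of 6 lists around the Notch pathway (y axis, 1 point a gene) in 3 comparisons. Filled red points passed a limma adjusted p of 0.05. No gene passed between Hep-Orgs and Pri-Hep, where 0% of all genes did. Between Cho-Orgs P5 and P10, 8 of 12 nuclear genes passed, all of them higher. Of all genes, 61.5% passed there, 31% higher and 30.5% lower.

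With gamma-secretase, 5 lists of the pathway held 49 genes, of which 40 were tested between all Hep-Orgs and Pri-Hep, 0 passed and 3 had an unadjusted p below 0.05, against 8.79% of all genes. None of 10 biliary genes did either. Within the nuclear complex and its co-repressors, 12 of 12 genes were tested in Cho-Orgs. From P0 to P5, 1 was higher and 3 lower (median -0.02, against 0.06 for all genes), where 56.6% of all genes passed. Rbpj, the DNA-binding partner of cleaved Notch, rose from 0.917 to 1.32 FPKM (0.27, limma adjusted p = 0.00598). The Groucho-family co-repressor Tle3 fell from 26.3 to 16.7 FPKM (-0.63, limma adjusted p = 7.42e-06). The histone deacetylase Hdac1 also fell (-0.39, limma adjusted p = 0.00544), and it was the highest of the list in the hepatocyte table at 13.6 FPKM. From P5 to P10, 8 were higher and 0 lower (median 0.44, against 0.01 for all genes), where 61.5% of all genes passed, 31% higher and 30.5% lower. Tle2 rose from 1.98 to 5.41 FPKM (1.11, adjusted p = 2.9e-05) and Tle3 rose to 27.1 FPKM (0.67, adjusted p = 4.56e-06). Over both steps the co-repressor Spen was higher by 0.75 (adjusted p = 2.13e-05). The highest gene of the list, Snw1, a splicing and transcription cofactor, was at 36.2, 39.4 and 41.6 FPKM at P0, P5 and P10.

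Of 12 genes that process ligands and receptors, 10 were tested in Cho-Orgs. From P0 to P5, where 56.6% of all genes passed, 3 were higher and 0 lower, led by the ligases Mib2 (8.11 to 15.9 FPKM, 0.90, limma adjusted p = 1.37e-06) and Mib1 (0.32, adjusted p = 0.000204), which ubiquitinate ligands. From P5 to P10, where 61.5% passed, 3 were higher and 3 lower. The convertase Furin, which matures Notch receptors, rose (0.55, adjusted p = 5.29e-05), and the sheddase Adam10 (42.1 to 29.5 FPKM, -0.50, adjusted p = 0.00025) and the glycosyltransferase Lfng (-0.57, adjusted p = 0.00126) fell. Among 9 tested genes of receptor turnover, 3 were higher and 2 lower in the first step and 2 higher and 3 lower in the next, near the share of all genes in both. The highest gene of turnover, the ubiquitin ligase Nedd4, averaged 197 FPKM in Cho-Orgs and 129 FPKM in the hepatocyte table. The Deltex gene Dtx3 rose in both steps (0.55 and 0.63, adjusted p = 0.00585 and 0.00232) and Dtx3l fell in both (-0.26 and -0.997, adjusted p = 0.0247 and 8.49e-06). Of the rest, Fbxw7 rose to P5 (0.29, adjusted p = 0.0089), Dtx4 fell and then rose (-0.36 and 0.49, adjusted p = 0.011 and 0.0018), and Numbl fell from P5 to P10 (-0.53, adjusted p = 0.00163). Over both steps Itch, a ligase that acts on Notch, was higher (0.33, adjusted p = 0.000331).

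Of the remaining ligands, receptors and targets, Notch4, Dll3, Dll4, Hes5, Hes7 and Hey2 were below 1 FPKM in every bulk library. Dlk1, an atypical ligand of hepatic progenitors, fell from 12.4 to 0.213 FPKM between P0 and P5 (-3.36, limma adjusted p = 8.88e-06) and was 3.30 FPKM at P10 (1.83 above P5, adjusted p = 0.000362). Hes6, which antagonises Hes1, went from 11.8 to 16.6 to 10.2 FPKM (0.46 and then -0.65, adjusted p = 0.000202 and 1.91e-05). Of 10 biliary genes linked to Notch in the liver, 4 were higher and 4 lower from P0 to P5, and 5 higher and 3 lower from P5 to P10, against 56.6% and 61.5% of all genes. Krt7 (248, 689 and 920 FPKM) and Myc (32.3, 80.5 and 150.5 FPKM) rose in both steps, and the secreted phosphoprotein Spp1 fell in both (3682, 805 and 527 FPKM). Sox9, a biliary transcription factor known as a Notch target, fell from P5 to P10 (16.3 to 9.37 FPKM, -0.73, limma adjusted p = 9.27e-05), and Onecut1 fell and then rose (20.9, 11.9 and 21.8 FPKM). Lower at P10 than at P5 was also Epcam (490 to 259 FPKM, -0.91, adjusted p = 8.43e-07).

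The 3 Smart-Seq subtypes had 1 library each, so their differences have no replicate check. All 3 ligands were lowest in the Grape-like library. Dll1 was at 1.12 FPKM there, 3.25 FPKM in Intermediate and 15.1 FPKM in Round-like organoids, so the Round-like value was 13.4 times the Grape-like one and 4.63 times the Intermediate one. Jag1 was at 1.60, 4.11 and 4.37 FPKM in the same order, and Jag2 at 0.510, 1.97 and 2.41 FPKM. The Intermediate library was close to the Round-like one for both Jagged genes and between the others for Dll1.

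Receptors showed smaller ratios. Notch1 was at 10.3, 8.61 and 8.54 FPKM in the 3 libraries, again from Grape-like to Round-like, Notch2 at 12.6, 9.39 and 9.60 FPKM, and Notch3 at 0.965, 0.459 and 0.864 FPKM. Grape-like organoids thus had the highest value of each receptor and the lowest value of each ligand. For the receptors the ratios to Round-like were only 1.21, 1.32 and 1.12, and Notch3 was under 1 FPKM throughout. The targets split. Hes1 was at 17.4, 30.5 and 27.6 FPKM and Nrarp at 0.687, 1.75 and 2.75 FPKM, lowest in Grape-like, whereas Hey1 was highest there, at 1.16, 0.267 and 0.175 FPKM. The low Hey1 values rest on about 35.2 and 23.0 estimated fragments. Heyl was at 0.0661 and 0.0219 FPKM in the Grape-like and Round-like libraries and listed at 0 in the Intermediate one.

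Between Grape-like and Round-like, 4 of the 8 genes with at least 1 FPKM in a library were past 2-fold on the log2(FPKM + 1) scale, against 21.8% of 12595 genes. All 4 were lower in Grape-like (Jag1, Jag2, Dll1 and Nrarp), a direction that 8.82% of all genes took. With a pseudocount of 0.1 or with TPM, 4 were lower and 1 higher, and with median-ratio factors 3 were lower. Between Intermediate and Round-like 1 of 8 was past 2-fold, Dll1, against 6.39% (2.54% lower). Between Grape-like and Intermediate it was 1 of 8, also Dll1, against 16.9% (7.15% lower). That last count was 5 with a pseudocount of 0.1, and on the reported scale Jag1 (-0.98) and Jag2 (-0.98) lay just inside the limit. The median of all genes was -0.13, -0.12 and 0.03 in the 3 comparisons, and -0.06, 0.00 and -0.02 with median-ratio factors. Of the gamma-secretase genes, Aph1c was past 2-fold between Grape-like and Round-like (8.13 against 1.59 FPKM).

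**Figure D5:**
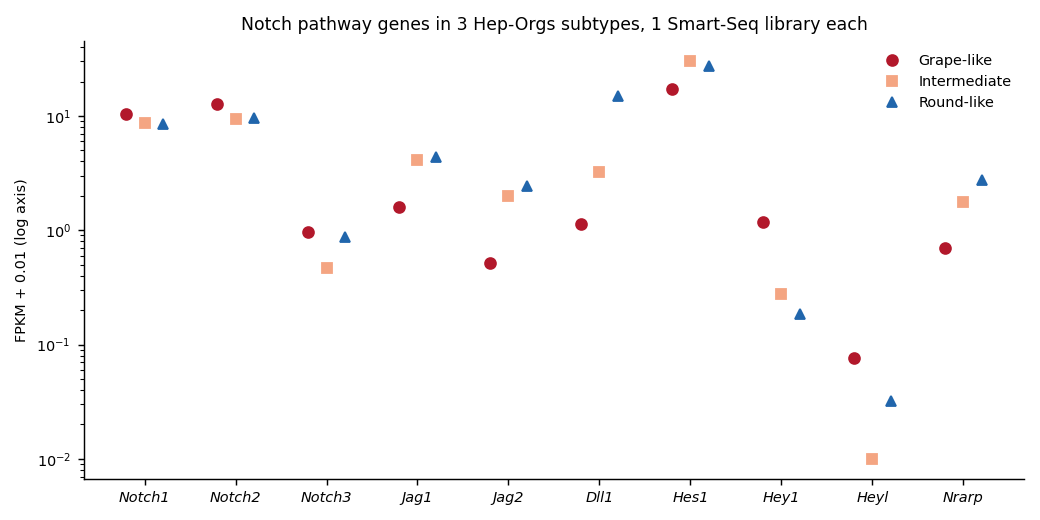
FPKM + 0.01 on a log axis (y axis) of the 10 Notch pathway genes (x axis) in 3 organoid subtypes, with 1 Smart-Seq library each, so there are no error bars. The Grape-like points are lowest for Jag1, Jag2, Dll1, Hes1 and Nrarp and highest for Hey1, with Dll1 at 1.12 against 15.1 FPKM in Round-like.

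Other cells marked the Grape-like library. Its 10 macrophage markers summed to 9488 FPKM, against 2747 in Intermediate and 1506 in Round-like. Stellate and mural markers summed to 1417, 364 and 311 FPKM and endothelial markers to 143, 54.6 and 27.9 FPKM. The macrophage, stellate and mural, and endothelial sums all fell in the order that Hey1 followed. The biliary markers ran the other way, at 937, 3728 and 3258 FPKM, and hepatocyte markers at 5106, 8531 and 1287 FPKM. The part of these cells in the Notch values was not tested.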

How the data were processed

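The deposited files hold FPKM per gene in 3 tables, which the authors made from mm10 alignments. The submitters' processing notes name featureCounts 2.0.3 and edgeR 3.40.2, and the aligner is not given in the sources used here. The tables differ in annotation and gene length and were analysed separately. In the hepatocyte table FPKM times gene length gave whole fragments (tolerance 0.05) for 100% of values. Genes with at least 1 FPKM in 3 libraries were tested on log2(FPKM + 1) with limma 3.58.1 (trend, R 4.3.3), all groups of a table in 1 fit, with Benjamini-Hochberg adjustment over all genes tested and a threshold of 0.05. A fold change on this scale understates changes of low genes. Shares were compared by two-sided exact permutation tests. The tests were checked on simulated data. Members and lists were chosen with earlier results of these data known. Named besides the 10 genes are gamma-secretase genes, the highest gene of each other list, and up to 2 genes a direction and comparison with the largest change among those that passed without overlap. Krt7, Krt19, Epcam, Alb, the markers listed as absent, and Tek and Vwf were named to describe the samples. Some results are not reported here. Promoter sequences are from RefSeq (GRCm38.p6), and windows of Hes1, Hey1 and Heyl were not used here. In the hepatocyte table pairs of libraries differed beyond counting noise, so none was counted as a repeat. Chi-square per degree of freedom was 1.98 to 3.33 for pairs within a group and 1.85 to 4.87 for pairs between groups. Libraries of different groups, Pri-Hep included, were thus often as alike as libraries of 1 group. Alternatives were another pseudocount, other filters, TPM, median-ratio factors, no trend, a replicate block, only the groups compared, and each replicate number left out.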

Additional observations from a re-analysis of the deposited data

How the results depend on the processing

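The 4 comparisons of Hep-Orgs with Pri-Hep, and P10 against P1, called 0 Notch genes under each alternative run, limma-voom on recovered fragments included. The median-ratio factor was 1.0018 for all 12 libraries of the hepatocyte table. That alternative rescaled them alike there and could hardly change a call. With a mean of at least 5 FPKM only 5 genes were tested in Cho-Orgs, and the counts became 5 (P5 against P0) and 4 (P10 against P5) because fewer genes entered. Leaving out each replicate number gave counts of 7 to 8 for P5 against P0, 5 to 6 for P10 against P5 and 5 to 6 for P10 against P0. The replicate numbers may stand for mice or for cultures, and same-numbered libraries did not deviate together (median r of -0.00 over 18 pairs and -0.01 over 9). With the replicate block the counts were 8, 6 and 6, the call lost being Hes1 at P10 against P5 (-0.21, limma adjusted p = 0.0595), and the block changed no other call. Differences near 0 changed sign. Between all Hep-Orgs and Pri-Hep, Notch2 was -0.0033 with TPM and -0.026 to 0.031 over replicates left out. Jag1 was -0.033 to 0.028, Dll1 -0.0056 to 0.025 and Notch3 -0.077 to 0.00023. In Cho-Orgs Dll1 at P10 against P5 was -0.18 to 0.047. The slope of the Hes1 share was 5.69 to 7.33 and that of the Jag1 share -0.91 to 0.93 points over replicates left out, where 6 libraries cannot pass 6 tests. Grape-like against Intermediate organoids had 5 genes past 2-fold with a pseudocount of 0.1, 4 with TPM and 3 with median-ratio factors. The change of Hey1 in Cho-Orgs from P5 to P10 was -1.09 on the reported scale, -2.42 with a pseudocount of 0.1 and -1.66 with TPM. Adding 1 to the value understates changes of low genes such as Hey1, and less so where the values are larger, as with TPM. The cause of the other shifts was not tested. Hey1, Heyl and Nrarp rested on 0 to 11 fragments a library in the hepatocyte table, so their levels there are imprecise.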
